A study of Mus musculus with 177 samples.

Results

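Gene expression was compared between the brains of newborn mice that had breathed low oxygen and then air (H21) and the brains of newborn mice kept in air throughout (N21). The arrays were chosen by their titles, which gave 18 of the 177 arrays of the series, 9 H21 and 9 N21. H21 mice breathed an inspired oxygen fraction of 0.08 for 120 min and were reoxygenated with air (0.21) for 30 min. N21 mice breathed air in both phases. Each brain was taken after a further 150 min in air, so the values describe the recovering brain and not the brain during oxygen lack. All mice were C57BL/6 at postnatal day 7. A further pair of exposures served as a comparison on separate mice. H100 mice (11 arrays) had the same low oxygen followed by 100% oxygen for 30 min, and N100 mice (9 arrays) breathed air and then 100% oxygen. The remaining hypoxia groups, H40 (9 arrays used) and H60 (11 arrays), were reoxygenated with 40% and 60% oxygen and entered the fit to estimate the spread. The labels name no region of the brain, and the design text randomizes 62 mice without tying an array to an animal. Each array was therefore taken as a separate animal, and the p-values measure the spread between arrays.

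Cells answer low oxygen through hypoxia-inducible factor (HIF), a transcription factor that is degraded while oxygen is plentiful and otherwise switches on genes of glycolysis, lactate export and blood vessel growth. When oxygen returns, HIF is degraded again, while stress hormones, oxidants and inflammatory signals continue to act on the brain. In that later phase astrocytes and blood vessels are known to make acute-phase proteins and metallothioneins, small proteins rich in cysteine that bind zinc and copper.

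RNA was hybridised to Affymetrix Mouse Gene 1.0 ST arrays, and values are log2 levels after robust multi-array averaging (RMA). A difference of 1 on this scale is a doubling. According to the labels' protocol, RNA came from a blood RNA kit after Ficoll separation, whereas series text speaks of solid tissue kept in RNAlater. Of 21 tested neuron markers 21 lay above the median gene of the H21 and N21 arrays (6.79), as did 17 of 17 astrocyte markers. Above the same level lay 1 of 11 lens and retina markers, 1 of 10 lung epithelium markers and 0 of 12 neutrophil markers. So did 2 of 6 red cell and 1 of 12 skeletal muscle markers. Of the other brain lists it was 12 of 17 for oligodendrocytes, 9 of 16 for microglia and 16 of 20 for endothelium. For pericytes and smooth muscle it was 6 of 14, for choroid plexus and ependyma 7 of 14, and for meninges 12 of 14. Which protocol was used was not tested. In bulk tissue, fewer cells of a type and less RNA per cell cannot be told apart. Precision depends on the spread between arrays and on how many arrays a group holds, and arrays have no read depth.

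The array labelled N21 replicate 2 stood apart from its group. A hypoxia index was computed for each brain array as the mean of the 25 genes with the smallest p that were higher in H100 than in N100, minus the mean of the 25 lower ones, in a fit without the H21 and N21 arrays. The index was 1.174 to 1.551 in the 9 H21 arrays (median 1.312), against 0.716 to 1.473 in the 9 N21 arrays (median 0.847). That array had the value 1.473, and the next N21 array had 1.032. All H21 arrays therefore lay above the other 8 N21 arrays, and the array labelled N21 replicate 2 lay inside the H21 range. In the opposite direction, the arrays labelled H40 replicate 2 (0.848), H60 replicate 1 (0.788) and H100 replicate 6 (0.982) lay below the other arrays of their groups.

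**Figure D1:**
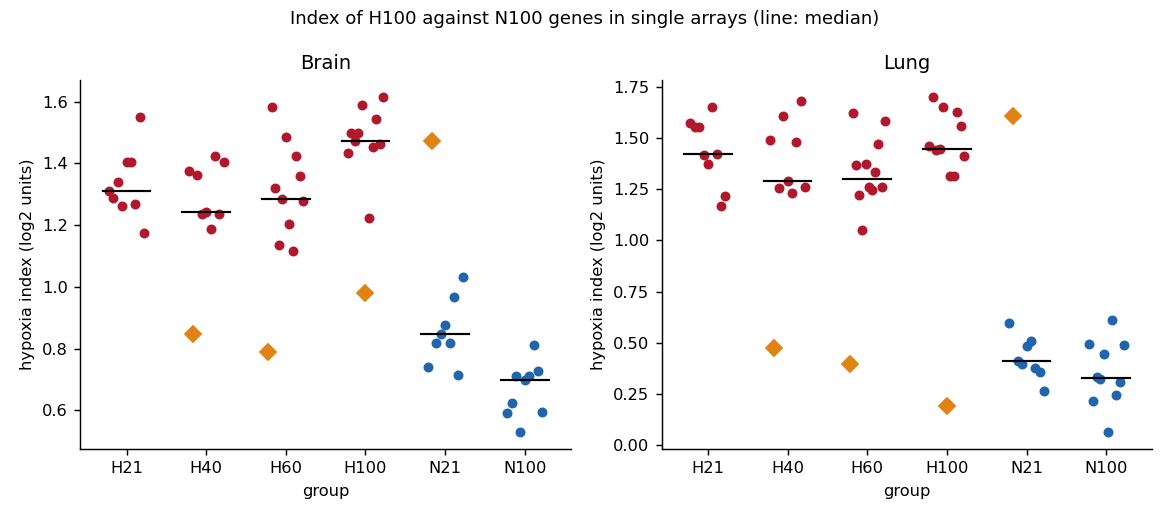
Hypoxia index in log2 units (vertical axis) of single brain arrays (left panel) and single lung arrays (right panel) in the 6 groups, each tissue with its own 25 genes higher and 25 genes lower in H100 than N100, and with the group median as a line. The 4 orange diamonds are H40 replicate 2, H60 replicate 1, H100 replicate 6 and N21 replicate 2, which lie apart from their groups in both tissues; in lung the array of N21 replicate 2 is at 1.607 and the other N21 arrays end at 0.598.

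The same 4 numbers stood apart in lung. In an index built in the same way from lung H100 and N100 arrays, H21 lungs had 1.169 to 1.652, and the lung array labelled N21 replicate 2 had 1.607 while the other 8 N21 lungs had 0.263 to 0.598. The lung arrays labelled H40 replicate 2, H60 replicate 1 and H100 replicate 6 had 0.475, 0.395 and 0.189. In eye the index of H21 arrays was 0.440 to 1.102, that of N21 arrays was 0.333 to 0.752, and the array labelled N21 replicate 2 did not stand apart. Because of this, the counts of called genes and the 6 genes called without N21 replicate 2 are given with and without it. Of 77 genes named for H21 minus N21 under the naming rule, 77 kept the direction of their change without that array, and the change moved by -0.055 to 0.162. Of the medians of 34 gene lists 31 kept their sign, and they moved by -0.036 to 0.029. Its removal was chosen on expression values, so the calls made without it are not independent of that choice. Of the 6 genes called without that array, Mt2, Mt1, Lcn2, A2m and Serpina3n are themselves genes of the brain index that singled it out.

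With all 18 arrays, 0 of 19937 genes (0%) passed the test for H21 minus N21 in brain, at a Benjamini-Hochberg adjusted p under 0.05 in limma. The smallest adjusted p was 0.162. At an unadjusted p under 0.05 there were 350 genes (1.76%), of which 177 were higher in H21 (0.888%) and 173 were lower (0.868%). Without N21 replicate 2, 6 genes passed (0.0301%), all of them higher in H21, and 363 genes had an unadjusted p under 0.05. The 6 genes were the protease inhibitors Serpina3n and A2m, the metallothioneins Mt1 and Mt2, the lipocalin Lcn2 and the endothelial receptor Adgrl4. They hold the 6 smallest p-values among the genes higher in H21 with all arrays too. With all arrays there were 0 genes (0%) whose H21 and N21 levels did not overlap. Without N21 replicate 2 there were 3 (0.015%), Lcn2, Mt2 and Serpina3n.

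Mt2 had the largest difference of the 6. Its log2 level was 11.01 at the lowest, 11.64 at the median and 12.36 at the highest in H21 brains, against 10.01, 10.54 and 11.69 in N21 brains. The N21 value of 11.69 belonged to replicate 2, and the other 8 N21 arrays ended at 10.68, below every H21 array. Its change was 1.08 ± 0.24 (± is the standard error of the fit, adjusted p = 0.162 in limma), and 9 of 9 H21 arrays lay above the N21 mean. Without N21 replicate 2 it rose by 1.24 ± 0.24 (limma adjusted p = 0.0124). Mt1, its neighbour on chromosome 8 with a start 6.47 kb away, had H21 levels of 10.61, 11.04 and 11.58 at the lowest, median and highest, against 9.91, 10.54 and 10.95 in N21 brains. The groups overlapped, with H21 replicates 4, 5 and 7 lower than the highest N21 array. Mt1 changed by 0.63 ± 0.13 with all arrays (limma adjusted p = 0.162) and rose by 0.71 ± 0.13 without N21 replicate 2 (adjusted p = 0.0124). The 2 transcripts are similar in sequence, so probes for one may take up some of the other.

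Both metallothionein genes are textbook targets of the zinc sensor MTF1, which binds metal response elements, and of the glucocorticoid receptor. The 250 bases upstream of the RefSeq start (GRCm38.p6) are shown for the pair because they moved together, and for Lcn2 and Serpina3n because their groups did not overlap without N21 replicate 2. Capitals mark matches on either strand to a metal response element (TGCACNC or TGCGCNC), to a HIF core (ACGTG or GCGTG), to a STAT site (TTCNNNGAA) or to a glucocorticoid element (AGAACA, or TGTTCT on the other strand, 1 side of the palindrome that the receptor binds). The Mt2 stretch is chr8:94172368-94172617, the Mt1 stretch is chr8:94178839-94179088, and the Serpina3n stretch is chr12:104406458-104406707, all on the plus strand. The Lcn2 stretch is chr2:32387740-32387989 on the minus strand.
Mt2: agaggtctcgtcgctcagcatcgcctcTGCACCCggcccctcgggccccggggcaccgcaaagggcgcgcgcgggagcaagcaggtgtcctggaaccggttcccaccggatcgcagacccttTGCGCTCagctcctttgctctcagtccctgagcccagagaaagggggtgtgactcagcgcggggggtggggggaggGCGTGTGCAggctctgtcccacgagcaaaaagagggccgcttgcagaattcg
Mt1: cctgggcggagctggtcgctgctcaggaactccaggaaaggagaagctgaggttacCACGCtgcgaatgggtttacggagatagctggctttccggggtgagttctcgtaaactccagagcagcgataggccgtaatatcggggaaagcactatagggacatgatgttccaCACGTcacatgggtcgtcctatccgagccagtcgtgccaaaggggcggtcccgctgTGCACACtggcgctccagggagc
Lcn2: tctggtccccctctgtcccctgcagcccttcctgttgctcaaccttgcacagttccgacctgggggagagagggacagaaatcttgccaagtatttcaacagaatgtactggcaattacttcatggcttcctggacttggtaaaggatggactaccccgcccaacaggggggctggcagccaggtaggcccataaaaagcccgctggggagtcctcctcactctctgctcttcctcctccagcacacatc
Serpina3n: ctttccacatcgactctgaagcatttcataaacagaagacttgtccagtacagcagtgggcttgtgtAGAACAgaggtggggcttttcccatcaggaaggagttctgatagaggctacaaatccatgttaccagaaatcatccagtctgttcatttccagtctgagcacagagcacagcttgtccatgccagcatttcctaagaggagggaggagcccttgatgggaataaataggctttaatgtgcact
The Mt2 stretch held 3 metal response elements, at 223, 128 and 50 bases before the start, the last of which shares letters with its 1 HIF core. The Mt1 stretch held 1 metal response element and 2 HIF cores, the Serpina3n stretch held 1 glucocorticoid element, and the Lcn2 stretch held none of the 4 motifs. Of 32851 stretches of the same length in the table, 21.4% held a metal response element, 38.6% a HIF core, 7.02% a STAT site and 16.1% a glucocorticoid element. These matches describe letters only. Of the 6 genes, 5 had an entry in the table, and Adgrl4 held 1 metal response element and 1 HIF core.

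Serpina3n encodes a secreted inhibitor of serine proteases that reactive astrocytes make. Its level was 7.90, 8.22 and 8.72 at the lowest, median and highest in H21 brains, against 6.61, 7.52 and 8.53 in N21 brains. Replicate 2 again held the highest N21 value, the next being 7.77, so the remaining N21 arrays lay below all H21 arrays. Serpina3n changed by 0.76 ± 0.16 (limma adjusted p = 0.162), with 9 of 9 H21 arrays above the N21 mean, and rose by 0.90 ± 0.15 without N21 replicate 2 (adjusted p = 0.00164). Serpina3n belongs to a cluster of near-identical genes, and its probe set may take up signal of its relatives. A2m, a protease inhibitor of plasma and extracellular fluid, had 7.39, 7.83 and 8.18 in H21 brains, against 6.90, 7.36 and 7.90 in N21 brains. Here the groups overlapped. H21 replicate 7, the lowest H21 array, lay below N21 replicates 2, 5, 7 and 9. H21 replicates 1, 2, 4 and 5 also lay below N21 replicate 2. A2m changed by 0.48 ± 0.11 (limma adjusted p = 0.176) and rose by 0.55 ± 0.11 without N21 replicate 2 (adjusted p = 0.0171).

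Lcn2 encodes lipocalin 2, a secreted protein that withholds iron from bacteria by binding their siderophores. Its level was 5.64, 6.29 and 6.54 at the lowest, median and highest in H21 brains, against 5.25, 5.44 and 6.45 in N21 brains. The N21 value of 6.45 was that of replicate 2, and the other N21 arrays ended at 5.61, just below the lowest H21 array. Its change was 0.67 ± 0.15 (limma adjusted p = 0.176), and it rose by 0.78 ± 0.15 without N21 replicate 2 (adjusted p = 0.0124). Adgrl4, an adhesion G protein-coupled receptor of blood vessel endothelium, had 7.84, 8.63 and 9.26 in H21 brains, against 6.75, 7.93 and 8.50 in N21 brains. H21 replicate 1 lay among the N21 arrays, and N21 replicate 3 lay far below all others. H21 replicate 3 (8.43) also lay below N21 replicates 2 (8.50) and 7 (8.45), so the groups overlapped without N21 replicate 2 too. Adgrl4 changed by 0.73 ± 0.16 (limma adjusted p = 0.162) and rose by 0.83 ± 0.16 without N21 replicate 2 (adjusted p = 0.0149). Over the 20 tested markers of brain endothelium the mean level was 7.89 to 8.14 in H21 arrays and 7.86 to 8.10 in N21 arrays, with N21 replicate 3 the lowest and replicate 2 the highest of the N21 arrays. The part of endothelial content in the Adgrl4 values was not tested.

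**Figure D2:**
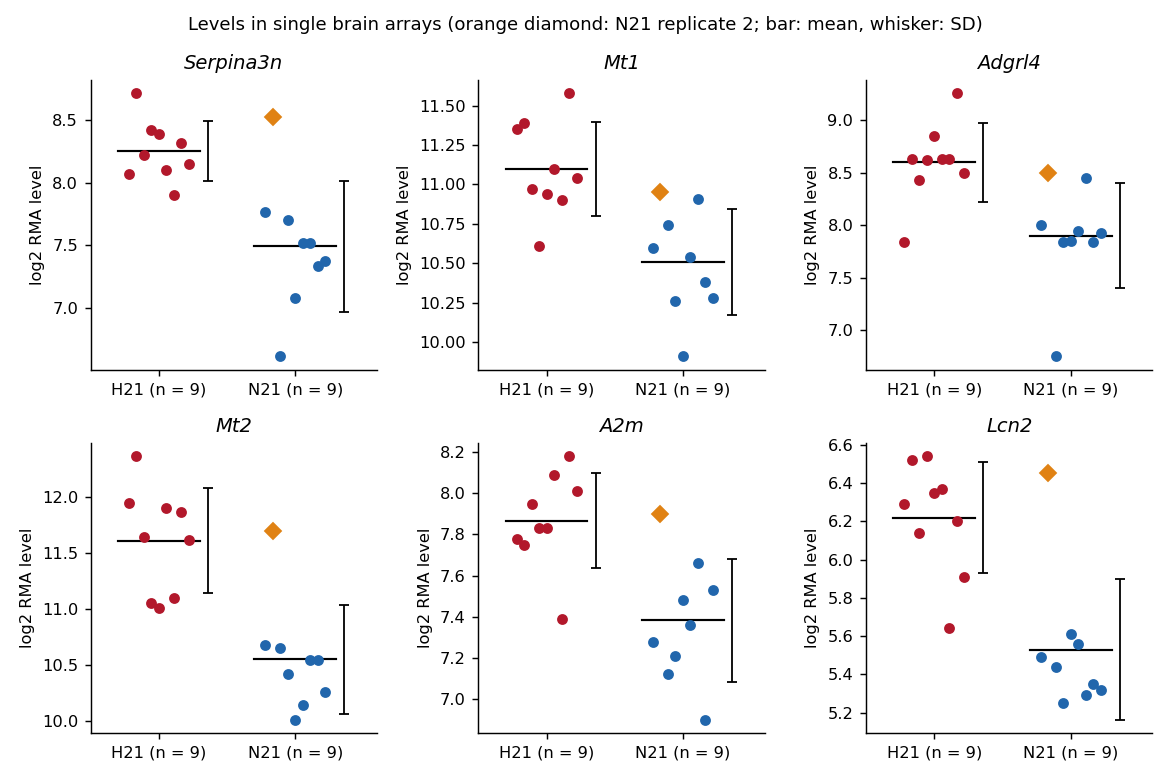
Log2 RMA levels (vertical axes) of the 6 genes that passed without N21 replicate 2, in 9 H21 arrays (left, red) and 9 N21 arrays (right, blue), each point 1 brain array, with group means as bars and SDs as whiskers. The orange diamond is N21 replicate 2, which lies among the H21 arrays in each panel; for Mt2 it is at 11.69 while the other N21 arrays end at 10.68.

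The next genes in the order of p did not pass with or without N21 replicate 2. Ccl12, a chemokine that attracts monocytes, had levels of 5.24 to 6.60 (median 5.50) in H21 brains, against 4.72 to 5.71 (median 4.78) in N21 brains, with a change of 0.72 ± 0.18 (limma adjusted p = 0.675) and of 0.79 without N21 replicate 2. All but 2 N21 arrays, replicates 2 and 6, lay below every H21 array. Slc16a3, the lactate exporter MCT4 and a known HIF target, had 6.48 to 7.28 (median 7.0) in H21 brains, against 6.09 to 6.99 (median 6.69) in N21 brains, and a change of 0.34 ± 0.09 (limma adjusted p = 1). On the lower side no gene came near the threshold, and the 8 genes of smallest p had an adjusted p of 1 with and without N21 replicate 2. Hspa2, a member of the HSP70 chaperone family best known from the testis, had 6.50 to 6.99 (median 6.86) in H21 brains, against 6.78 to 7.28 (median 7.08) in N21 brains, a difference of -0.28 ± 0.08. Dnah11, a dynein of motile cilia, differed by -0.20 ± 0.06, and Adcy8, a calcium-stimulated adenylyl cyclase of neurons, by -0.24 ± 0.08. Myorg, a glycosidase, differed by -0.30 ± 0.10 and Gabre, a subunit of the receptor for the transmitter GABA, by -0.28 ± 0.09. The remaining differences were -0.52 ± 0.17 for Serpina1c, of the antitrypsin family, -0.29 ± 0.10 for Lrrc34 and -0.26 ± 0.09 for Cped1.

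The same question was put to mice that shared no array with H21 or N21, namely H100 against N100. In that contrast 3 genes passed (0.015%), all higher in H100, and 549 had an unadjusted p under 0.05. They were Mt2 (1.16 ± 0.23), Lcn2 (0.77 ± 0.15) and A2m (0.53 ± 0.11), each with a limma adjusted p of 0.0424. These calls lay just under the threshold, and all 3 were lost in most fits that left out 1 array. The count was 4 without H100 replicate 6, the array of low index, and 3 without H100 replicate 7. It was 2 without H100 replicate 8, N100 replicate 1 or N100 replicate 3. Of 20 fits that each left out 1 H100 or N100 array, 14 gave 0 calls, namely those without H100 replicate 1, 2, 3, 4, 5, 10 or 11 or N100 replicate 2, 4, 5, 6, 7, 8 or 9, and the fit without H100 replicate 9 gave 1, Lcn2. In a fit without the H21 and N21 arrays the same 3 genes had the smallest p-values, with a smallest adjusted p of 0.124. Of the other genes called without N21 replicate 2, Mt1 was at 0.51 ± 0.13, Serpina3n at 0.56 ± 0.15 and Adgrl4 at 0.44 ± 0.16 in H100 minus N100, with limma adjusted p of 0.495, 0.855 and 1.

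Mt2, Lcn2 and A2m passed in H100 minus N100, in a fit whose spread and block estimates also drew on the H21 and N21 arrays. In the fit without those arrays they had the smallest p-values, but 0 genes passed. Their order there did not use the H21 and N21 levels, which were then tested for the 3 genes. The test permuted group labels within each of the 2 parts of the deposited table, over all 18 arrays including N21 replicate 2. The exact two-sided permutation p was 0.00068 for Lcn2, 0.000928 for Mt2 and 0.00291 for A2m, where 6.18e-05 was the smallest p that the 16170 arrangements allow. The differences had the same direction in both parts. H21 minus N21 was 0.96 in the first part and 1.15 in the later part for Mt2, 0.72 and 0.54 for Lcn2, and 0.47 and 0.50 for A2m. The first part held 6 H21 and 5 N21 arrays and the later part held 3 and 4. The permutation did not take sex into account. In the first part all N21 arrays were read as female, while the H21 arrays held both sexes.

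**Figure D3:**
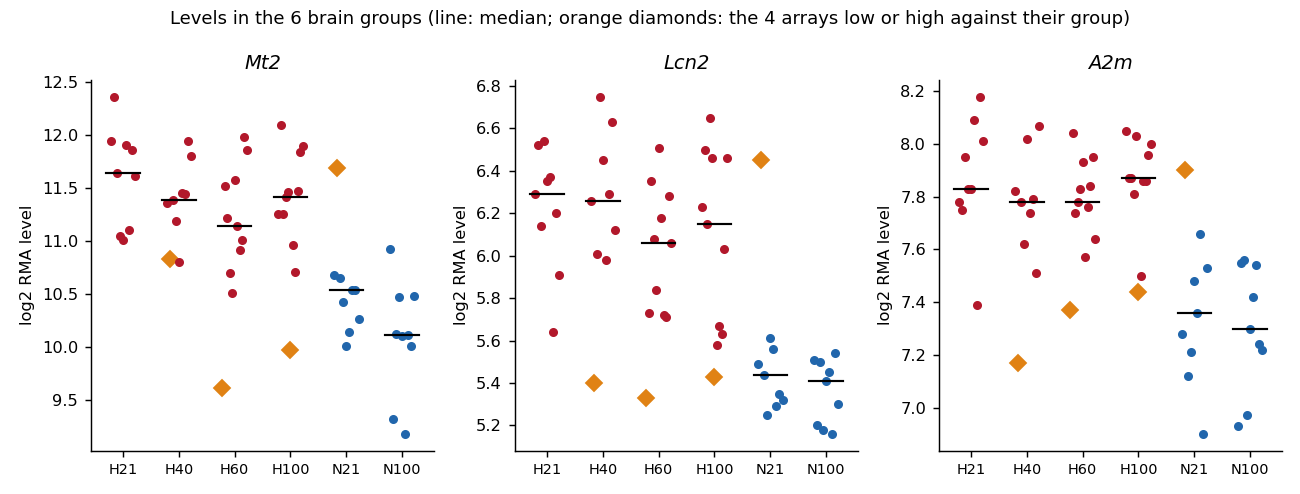
Log2 RMA levels (vertical axes) of Mt2, Lcn2 and A2m in single brain arrays of the 4 hypoxia groups (red), in order of the oxygen given afterwards, and of the 2 groups without hypoxia (blue), with the group median as a line. Medians of Mt2 are 11.64, 11.39, 11.14 and 11.41 in H21, H40, H60 and H100, against 10.54 and 10.11 in N21 and N100, and the 4 orange diamonds are the arrays that stand apart from their groups.

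The 3 genes were followed across the 4 hypoxia groups. The median of Lcn2 was 6.29, 6.26, 6.06 and 6.15 in H21, H40, H60 and H100, against 5.44 in N21 and 5.41 in N100. For A2m it was 7.83, 7.78, 7.78 and 7.87 in the hypoxia groups, against 7.36 in N21 and 7.30 in N100. H40 replicate 2, H60 replicate 1 and H100 replicate 6, the arrays of low index, had the lowest Lcn2 levels of their groups (5.40, 5.33 and 5.43). For Mt2, H40 replicate 2 (10.83) was not the lowest, since H40 replicate 5 was at 10.80. Lcn2, Mt2 and A2m are genes of the index that singled these arrays out, so their low levels are not separate observations. A test of whether the hypoxia change differed between air and 100% oxygen, H21 minus N21 minus the difference of H100 and N100, passed for 0 genes (0%) in limma, with 289 at an unadjusted p under 0.05 and a smallest adjusted p of 0.66. For Mt2 this difference of changes was -0.08 ± 0.34, for Lcn2 -0.11 ± 0.22, for A2m -0.05 ± 0.16, for Mt1 0.12 ± 0.19, for Serpina3n 0.20 ± 0.22 and for Adgrl4 0.29 ± 0.23.

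**Figure D4:**
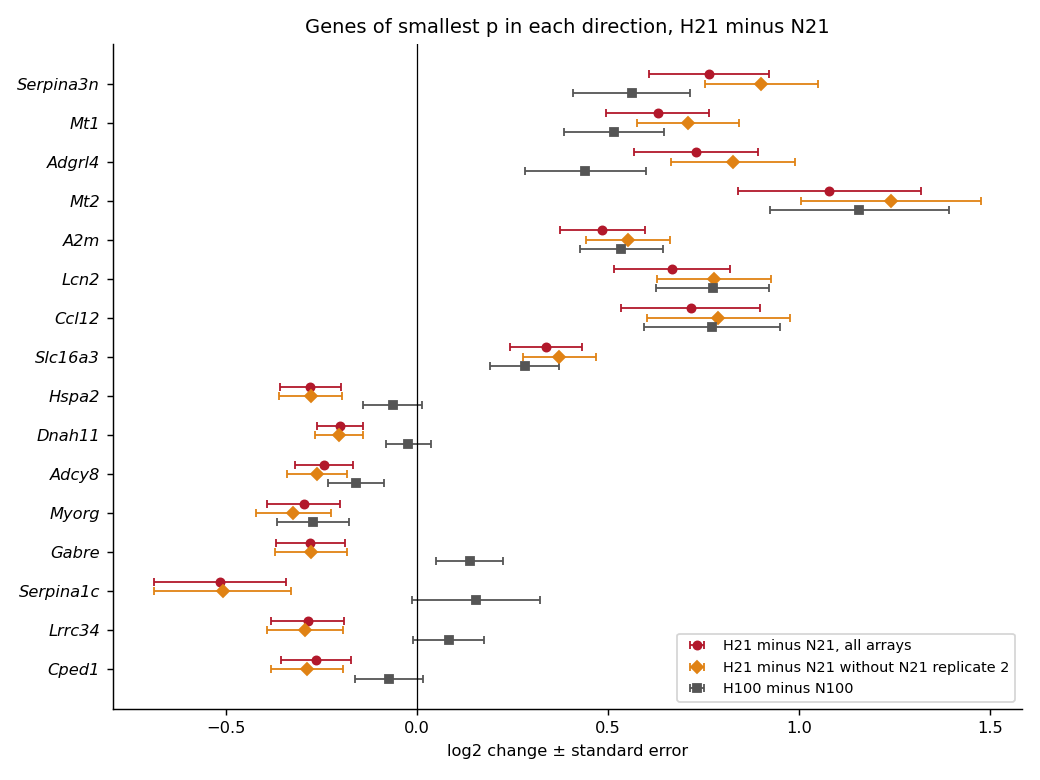
Log2 change with its standard error (horizontal axis) of the 8 genes of smallest p in each direction for H21 minus N21, with all arrays (red circles), without N21 replicate 2 (orange diamonds) and, in separate mice, for H100 minus N100 (grey squares). The 8 higher genes lie above 0 in each contrast; of the 8 lower genes Gabre, Serpina1c and Lrrc34 lie above 0 in H100 minus N100.

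Genes that glucocorticoids are known to induce held 3 of the 6 genes. Of 25 tested members of that list, 0 passed with all arrays. Without N21 replicate 2, 3 rose, Mt2, Mt1 and Lcn2, against 0.0301% of all genes. Mt1 and Mt2 also belong to the antioxidant list below, and Lcn2 to the inflammatory list. At an unadjusted p under 0.05, 7 glucocorticoid members were higher and 0 lower, against 0.888% and 0.868% of all genes. Of the 25 members 20 had a positive change, against 9922 of 19937 genes. The median change of the list was 0.08, against -0.0004 over all genes tested. The same median was 0.11 without N21 replicate 2 and 0.06 in H100 minus N100. Fkbp5, a chaperone that restrains the glucocorticoid receptor and was chosen after its values were seen, was at 0.31 ± 0.09 with a mean of 8.39 in H21 and 8.08 in N21 brains (limma adjusted p = 1), and at 0.36 without N21 replicate 2. The lists of this section were drawn up with earlier results of these data known, and their counts are descriptions. The shares over all genes given here also stand beside the counts of the lists below.

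The 3 lists of the oxygen-sensing pathway gave no call with all arrays, where no gene of any kind passed, and none without N21 replicate 2. Among 27 HIF targets outside glycolysis, 17 had a positive and 10 a negative change, with a median of 0.02 and 3 members higher at an unadjusted p under 0.05. Over all genes tested, 0.888% were higher at that p. P4ha1, a collagen prolyl hydroxylase, had 8.24 to 8.86 (median 8.44) in H21 brains, against 8.08 to 8.64 (median 8.23) in N21 brains, a difference of 0.20 ± 0.08. Bnip3, a mitochondrial protein of mitophagy, differed by 0.26 ± 0.11. Among 19 genes of glycolysis and glucose entry, 15 had a positive change, with a median of 0.08 and 3 members higher at an unadjusted p under 0.05. They included Slc16a3 and Hk2, the inducible hexokinase, at 0.28 ± 0.12. For the 7 HIF subunits and oxygen-sensing hydroxylases the median was -0.02, with Hif1a at -0.05 ± 0.11 and the asparaginyl hydroxylase Hif1an at 0.06 ± 0.08. The medians of these 3 lists were 0.05, 0.09 and 0.0025 without N21 replicate 2, and in H100 minus N100 they were 0.08, 0.10 and -0.02. None of the members named here passed the test, with adjusted p of 1 in limma.

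Inflammatory and interferon genes showed a few single members above the rest. Of 22 cytokines, chemokines and related genes, 0 passed with all arrays and 1, Lcn2, rose without N21 replicate 2. The median of the 22 was 0.06, with 2 members higher at an unadjusted p under 0.05, and it was 0.06 without N21 replicate 2 and -0.01 in H100 minus N100. Cxcl10, a chemokine for T cells, had 4.76 to 5.58 (median 5.36) in H21 brains, against 4.57 to 5.57 (median 4.74) in N21 brains, a difference of 0.44 ± 0.16. N21 replicate 2 held its highest N21 value, and the others ended at 4.86, so the difference was 0.55 without it. Of 15 interferon-stimulated genes 0 passed and 2 were higher at an unadjusted p under 0.05, the protease Usp18 (0.26 ± 0.09) and Ifit1 (0.34 ± 0.15), an RNA-binding antiviral protein. Their median was 0.04. The 12 neutrophil genes had a median of 0.05, with a mean level of 4.46 to 4.82 in H21 arrays and 4.38 to 4.87 in N21 arrays. Among them the antimicrobial peptide gene Camp was at 0.22 ± 0.08, and Mmp9, a gelatinase, was at -0.24 ± 0.13.

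Stress-response lists had medians near that of all genes. Among 20 genes of NRF2 and antioxidant defence, Mt1 and Mt2 rose without N21 replicate 2, and the list's median was -0.0041 with 9 positive and 11 negative members. Hmox1, the heme-degrading oxygenase of that list, was chosen after its values were seen. It averaged 7.39 ± 0.37 in H21 brains and 6.72 ± 0.32 in N21 brains (SD, n = 9 each), a difference of 0.67 ± 0.21, with a limma adjusted p of 1, and of 0.76 without N21 replicate 2. The median change was 0.03 for 12 heat shock proteins, 0.03 for 21 genes of the unfolded protein and amino acid response, and 0.05 for 15 p53 targets and cell death genes. None of these 3 lists had a called member, and Slc7a11, the cystine transporter, was the 1 member lower at an unadjusted p under 0.05 (-0.26 ± 0.10). Immediate-early genes had a median of 0.03 in 23 members, with Dusp1 at -0.16 ± 0.10 and Atf3 at 0.13 ± 0.10.

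Vessel genes were described by 3 lists. Of 20 angiogenic signals and receptors 0 passed, 10 had a positive and 10 a negative change, and 2 were higher at an unadjusted p under 0.05. Angpt2, the ligand that loosens vessels by blocking the Tie2 receptor, had 5.68 to 6.49 (median 6.15) in H21 brains, against 5.53 to 6.20 (median 5.73) in N21 brains, and differed by 0.33 ± 0.10. Flt1, a receptor of vascular endothelial growth factor, differed by 0.17 ± 0.06. Among 20 genes of blood-brain barrier endothelium the median was 0.0087, and 2 members were higher and 1 lower at an unadjusted p under 0.05. Pecam1, an adhesion molecule between endothelial cells, differed by 0.22 ± 0.09. The lower member, Slco1a4, an organic anion transporter of the barrier named here after its values were seen, differed by -0.40 ± 0.16, and by -0.42 in H100 minus N100. The 14 genes of pericytes and smooth muscle had a median of -0.03. None passed with or without N21 replicate 2.

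The 3 medians of largest size among the 34 lists belonged to meninges, choroid plexus and oligodendrocytes. All 14 meningeal and fibroblast genes had a negative change, with a median of -0.18 and 2 members lower at an unadjusted p under 0.05, the matrix proteoglycan Bgn (-0.24 ± 0.09) and the retinoid carrier Crabp2 (-0.23 ± 0.10). The mean level of the list ran from 7.61 to 8.11 in H21 arrays and from 7.82 to 8.42 in N21 arrays. Choroid plexus and ependymal genes had 12 of 14 negative changes and a median of -0.14, with Igf2 at -0.20 ± 0.11 and Sostdc1 at -0.19 ± 0.11. In H100 minus N100 the medians of these 2 lists were 0.05 and 0.02, of the opposite sign. Oligodendrocyte and precursor genes had 15 of 17 negative changes and a median of -0.12, with the lineage genes Enpp6 at -0.31 ± 0.19 and Myrf at -0.13 ± 0.10, and their median in H100 minus N100 was -0.15. The medians of the meningeal, choroid plexus and oligodendrocyte lists were -0.21, -0.14 and -0.16 without N21 replicate 2. In the 2 groups the mean levels of each list overlapped, and the part of tissue sampling in these values was not tested.

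Neurons, astrocytes and microglia had medians of -0.03, -0.0058 and 0.0009 over 21, 17 and 16 markers. The GABA neuron genes Gad2 and Slc32a1 were at -0.19 ± 0.10 and -0.12 ± 0.08. Gfap, the filament protein of reactive astrocytes, was at 0.29 ± 0.14, with 8.63 to 9.60 (median 9.25) in H21 brains, against 8.31 to 9.53 (median 8.92) in N21 brains. The groups overlapped over most of their range, and N21 replicate 1 held the highest N21 level. The astrocyte calcium-binding protein S100b was at -0.20 ± 0.15. In microglia, Siglech, a lectin of resting microglia, was at -0.19 ± 0.10 and the identity factor Sall1 at -0.14 ± 0.08.

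**Figure D5:**
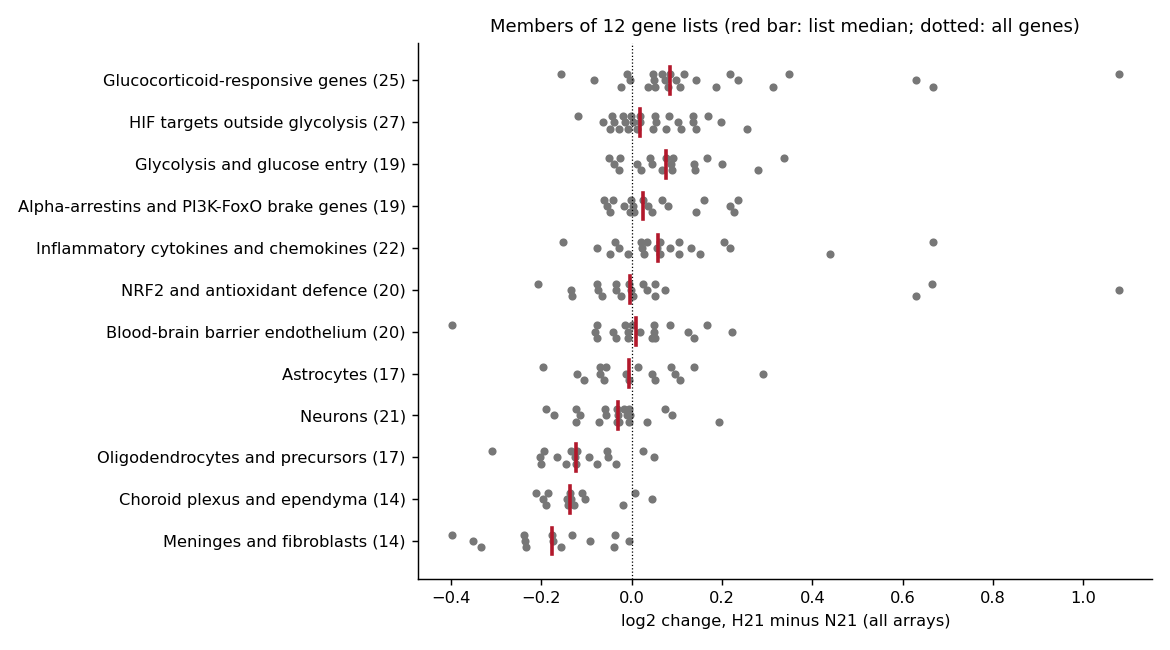
Log2 change of H21 minus N21 with all arrays (horizontal axis) for the tested members (grey points) of 12 gene lists, with the number of members in brackets, the list median as a red bar and the median of all 19937 genes as a dotted line. The 3 points at 0.63 or more in the glucocorticoid list are Mt2, Mt1 and Lcn2, and all 14 meningeal and fibroblast genes lie below 0.

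Growth and metabolism were covered by several lists. DNA replication genes had a median of -0.01 over 27 members, with 2 lower at an unadjusted p under 0.05, the DNA polymerases Pola1 (-0.27 ± 0.12) and Pole (-0.22 ± 0.11). Mitosis genes had a median of 0.02 over 21 members. For 15 cholesterol synthesis genes it was -0.03, with 14 of 15 negative, and for 18 genes of oxidative phosphorylation it was -0.02. Ketone and fatty acid genes (19 members), neurotrophins and their receptors (7), and genes of heme, iron and adenosine handling (12) had medians of -0.02, -0.0053 and 0.0039. Among 19 alpha-arrestins and brake genes of growth signalling the median was 0.03, and Txnip, which limits glucose uptake, was at 0.24 ± 0.09 and its relative Arrdc4 at 0.23 ± 0.09. The clock genes Cry1 and Per2, both of which repress their own transcription, were at 0.17 ± 0.08 and 0.16 ± 0.08, and the median of 17 clock genes was 0.0033. The median was 0.05 for red cell, 0.05 for lens and retina, 0.03 for lung epithelium and -0.0039 for skeletal muscle genes. No member of these lists passed, with or without N21 replicate 2.

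The change in brain was tested against the change in lung and in eye, in 1 fit over all tissues. The 177 arrays came from 62 mice, so tissues share animals, but the labels tie no arrays of different tissues to 1 animal and the fit takes them as independent. Brain minus lung passed for 5 genes (0.0251%), and none was among the 16 genes named above for their p in brain. The count was 16 without N21 replicate 2 of each tissue, and 24 without the 4 arrays of unusual index in each tissue, of which A2m was 1. Ldb2, a cofactor of LIM proteins, differed by 0.65 ± 0.11 (limma adjusted p = 0.00104), with 0.15 ± 0.08 in brain and -0.49 ± 0.08 in lung. The other 4, Dpep1, Fhl5, Gdpd2 and Ntrk2, had lower changes in brain than in lung, by -1.45 to -0.67. Their brain changes were -0.15 to 0.07. Brain minus eye passed for 0 genes (0%), with 297 at an unadjusted p under 0.05. Slc16a3 came nearest at 0.71 ± 0.15 (limma adjusted p = 0.0868), with 0.34 in brain and -0.37 in eye. When N21 replicate 2 of each tissue was left out 2 genes passed, Slc16a3 at 0.75 ± 0.15 (limma adjusted p = 0.0465) and Pfkp, the platelet isoform of phosphofructokinase, which had the lower change in brain.

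For the 6 genes the tissue differences did not pass with all arrays. A2m was at 0.48 in brain, -0.17 ± 0.13 in lung and -0.10 ± 0.13 in eye in that fit, and its brain minus lung difference was 0.66 ± 0.18 (limma adjusted p = 0.386). Mt1 was at 0.04 ± 0.13 in lung and 0.56 ± 0.13 in eye. Mt2 was at 0.25 ± 0.22 in lung and 0.73 ± 0.22 in eye, Lcn2 at 0.52 ± 0.34 and 1.32 ± 0.34, Serpina3n at 0.89 ± 0.20 and 0.33 ± 0.20, and Adgrl4 at 0.34 ± 0.16 and 0.43 ± 0.16. The adjusted p of brain minus lung and of brain minus eye was 0.386 or more for each of the 6. The brain minus lung difference of A2m without N21 replicate 2 of each tissue was 0.75 ± 0.18 (limma adjusted p = 0.0702), that of Mt1 0.68 ± 0.19 (0.219) and that of Mt2 1.02 ± 0.32 (0.416), and the 6 genes again did not pass. Without the 4 arrays of each tissue A2m passed, at 0.74 ± 0.17 (limma adjusted p = 0.0282).

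Sex, read from the arrays, was uneven. Of the H21 brains 4 were female and 5 male, and of the N21 brains 7 were female and 2 male. With sex as a covariate 0 genes passed with all arrays, and 5 passed without N21 replicate 2. In the first part of the table alone, without N21 replicate 2, 0 genes passed, with 6 H21 arrays against 4 N21 arrays.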

How the data were processed

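RNA of brain, lung and eye was measured on 177 Affymetrix Mouse Gene 1.0 ST arrays, from 10 ng of RNA per array per the labels' protocols. The authors deposited log2 values after RMA, per the submitters' processing notes, which name no version. RMA subtracts background, gives the arrays a common distribution and summarizes probes, which limits what can be seen of changes common to most genes. Among the 34760 probe sets, 21640 carry a single symbol in the annotation of the platform, 1321 several and 11799 none, and 21553 of the single ones were found in RefSeq (GRCm38.p6) by Entrez identifier. The probe set with the highest mean in brain stood for a gene, which left 19937 genes.

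Groups came from the sample titles. All 6 brain groups (58 arrays) were fitted with limma 3.58.1 in R 4.3.3 (package data.table, version 1.17.8), with the first 113 columns of the deposited table against the rest as a block, and genes were called at a Benjamini-Hochberg adjusted p under 0.05, two-sided. The block is a position in the table and not a batch that a label states. The array titled H40 replicate 7 of brain, which had the profile of another tissue, was left out, as were its counterparts in lung and eye. No brain arrays in the fit held identical values. The closest pair, H60 replicate 9 and H100 replicate 8, had a root mean square difference of 0.132, against a median of 0.331 over pairs. Sex was read as Xist minus Y-linked genes.

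The text names called genes, filled to 8 per direction by smallest p without predicted genes, pseudogenes, small RNAs and chemosensory receptors, and for each of 34 lists its called members or the 2 of smallest p. The members and the lists were chosen with earlier results of these data known. Of 612 list entries 565 were tested, 4 of them through a synonym. Alternatives were no block, each table part alone, only H21 and N21, all arrays, array weights, quantile normalization, a filter on the dimmest 40% of genes, every probe set, sex, the replicate number as a block and each array left out. Chosen after seeing the data were the alternatives to the fit without N21 replicate 2 and the removal of 4 arrays together. The fit was tested on simulated data of the H21 minus N21 comparison over 19937 genes. It called 84 of 100 changes of 0.5 and 100 of 100 changes of 1, with 5 false calls, and without N21 replicate 2 it called 77 and 100. The simulated noise was normal and independent between genes, and no simulated array was made to stand apart from its group. These counts therefore do not give the power in the measured arrays, where Mt2 at 1.08 did not pass with all arrays.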

Additional observations from a re-analysis of the deposited data

Results flagged for a closer look

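The hypoxia index and the levels of 16 genes were tested in H21 and in N21, which made 34 sets of 9 brain arrays. Of these sets 4 had 1 array far from the others, by a gap above Dixon's 95% critical value. Chance alone gives such a gap in about 1 of 20 groups. The hypoxia index of N21 replicate 2 was 1.47, and the nearest other N21 array was at 1.03. Mt2 was at 11.69 in N21 replicate 2, the nearest N21 array being at 10.68. Lcn2 was at 6.45 in the same array, with the nearest N21 array at 5.61. In N21 replicate 3 Adgrl4 was at 6.75, while the nearest N21 array was at 7.84. The first 3 gaps belong to 1 array that had already been singled out by its index, and Mt2 and Lcn2 are among the genes of that index, so they are not separate observations. The part of sample handling in these gaps was not tested.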

How the results depend on the processing

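With all arrays the count of called genes for H21 minus N21 stayed at 0 in 26 of 30 alternatives. It was 1 with array weights (Adgrl4) and 6 when the 4 arrays of unusual index were left out together. Leaving out single arrays gave 0 to 6, with 3 without H21 replicate 7 (A2m, Mt1, Serpina3n) and 6 without N21 replicate 2. The 16 genes of smallest p kept their direction in the 29 or 30 alternatives run for each. Without N21 replicate 2 the count of 6 was 0 in the first part of the table alone and 12 with array weights, and 4 to 7 when another array was left out as well. For H100 minus N100 the count of 3 was 26 with array weights, and 0 to 4 when single arrays were left out. Same-numbered arrays of H21 and N21 share only a number (correlations of deviations -0.012 to 0.534, 6 of 9 pairs over 0.1, 2 of 18 arrays closest to their own number). With the replicate block the counts were 0 for H21 minus N21, 5 without N21 replicate 2 and 0 for H100 minus N100. Brain minus lung gave 51 with array weights, 16 without N21 replicate 2 and 24 without the 4 arrays in each tissue, where the main count was 5. Brain minus eye gave 2 without N21 replicate 2 (Pfkp, Slc16a3) and 3 without the 4 arrays in each tissue. Some genes that did not pass changed sign. In the first part alone Hspa1a was at -0.036, Tpx2 at -0.013, Bub1b at -0.056 and Ndufv1 at -0.038. In the later part alone Hamp was at 0.20, Scgb1a1 at -0.057 and Bpgm at 0.022. Ngfr was at 0.0026 with array weights, Scgb1a1 at -0.023 without H21 replicate 1 and Hif1a at 0.019 without N21 replicate 7; with single arrays left out Hif1a ran from -0.11 to 0.019 and Scgb1a1 from -0.023 to 0.16. The cause was not tested for any of these. The first part alone and the later part alone each hold fewer arrays than the full comparison. The 9 arrays per group limit the precision.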
